A study of Mus musculus with 27 samples.

Results

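The endoplasmic reticulum stress genes described here are 10 mouse genes of the unfolded protein response and of disulfide formation: Hspa5, Hyou1, Dnajb9, Pdia4, Ero1lb, Herpud1, Xbp1, Atf4, Ddit3 and Trib3. They were chosen by name, and each was looked up by its symbol in the 3 deposited tables of read counts per gene. All 10 were found in each table, among 55536 genes for embryonic pancreas, 26487 for islets and 39017 for motor neuron progenitors, and all 10 passed the filter on low counts in every comparison. Ddit3 has 2 rows in the embryonic table, and the row with no counts in any library was left out.

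The study asked what Nkx2.2, a homeodomain transcription factor, and its SD domain do in pancreas and in neural progenitors. Whole pancreata at E15.5 came from 3 wildtype controls and 4 Nkx2.2SDmut animals, whose Nkx2.2 gene carries SD domain mutations. Islets were taken at 8 weeks from 2 controls and 3 animals with the SD mutation restricted to beta cells (betaSDmut), and at 4 weeks from 2 controls and 2 animals labelled betaKO. Progenitors were differentiated to day 4 from mouse embryonic stem cell lines: 3 untreated libraries of the iNkx2.2 line (called pMN), 3 of the same line given doxycycline for about 16 h to switch on FLAG-tagged wildtype Nkx2.2, and 2 of the iSDmut line given doxycycline to switch on the SD mutant. Doxycycline and transgene therefore cannot be told apart against pMN, and iSDmut differs from pMN in the line as well. The driver of the beta-cell alleles is not given in the sources used here, and the 4-week libraries are labelled as genomic DNA and refer to another study for their preparation. The labels do not say which islet or progenitor samples are separate animals or cultures, so p-values measure the spread between these samples.

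Proteins that enter the secretory pathway are folded in the endoplasmic reticulum, and a beta cell, which makes proinsulin with its disulfide bonds, places a heavy load on it. When unfolded protein builds up, the sensors Ire1, Perk and Atf6 act through the transcription factors Xbp1, Atf4 and the cleaved form of Atf6. Xbp1 and Atf6 raise chaperones and degradation factors through the endoplasmic reticulum stress element (ERSE), while Atf4, which translation of its own mRNA controls strongly, raises amino acid and transfer RNA synthetase genes, Ddit3 and Trib3. Ire1 acts on Xbp1 by splicing its mRNA, and a count per gene does not show that splicing.

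Short sequences of 3 of the genes are shown because they hold the response elements, and because Herpud1 also lies beside an Nkx2.2 site. They are pieces of RefSeq promoters (GRCm38.p6), written 5′ to 3′ on the strand of the gene, and capitals mark the matches. ERSE was searched as CCAAT and CCACG with 9 bases between them, ERSE-II as ATTGG, 1 base and CCACG, a further element (UPRE) as TGACGTGG, and the core bound by Atf4 and its partners (CARE) as TGATGNAA, each on both strands in the 250 bases before the gene start. Starts in this paragraph are those of RefSeq. The Hspa5 piece is at chr2:34772020-34772048, plus strand, 70 to 42 bases before the start. The GENCODE gene model, used below for distances to Nkx2.2 sites, starts for Hspa5 at 34771970, so this piece lies within that model. That of Ero1lb is at chr13:12565652-12565730, plus strand, 231 to 153 bases before the start, with the ERSE on the opposite strand. In Herpud1, at chr8:94386287-94386417, plus strand, 142 to 12 bases before the start, the first capitals are a CARE on the opposite strand and the later ones an ERSE-II.
Hspa5: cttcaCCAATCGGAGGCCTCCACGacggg
Ero1lb: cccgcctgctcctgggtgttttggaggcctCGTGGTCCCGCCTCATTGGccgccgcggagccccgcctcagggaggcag
Herpud1: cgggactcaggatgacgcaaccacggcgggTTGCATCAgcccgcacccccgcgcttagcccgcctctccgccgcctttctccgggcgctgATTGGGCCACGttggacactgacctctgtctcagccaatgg

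Of the 10 genes, 9 have a promoter in the RefSeq table used, all but Hyou1. An ERSE was present in 2 of these 9 (Hspa5 and Ero1lb), against 0.113% of 32851 promoters of the same length. An ERSE-II was present in 1 of 9 (Herpud1), against 0.0304%, and a CARE in 1 of 9 (Herpud1), against 3.45%. None of the 9 held the UPRE letters, which 0.563% of all promoters hold. These are matches of letters, not measured sites.

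The beta-cell line MIN6 was used for chromatin immunoprecipitation (ChIP) of Nkx2.2, which gave a deposited set of 6473 sites. The authors' deposited table of islet effects lists 9 of the 10 genes and joins a site to 2 of them (22.2%), Ero1lb and Herpud1, against 26.02% of all 9971 genes listed. The Herpud1 site lay 593 bp before the start of the gene and the Ero1lb site 5867 bp before it. The Herpud1 site had 282 and 216 reads in the 2 ChIP libraries and log2 CPM values of 8.49 and 8.53, rank 365 of the 6473 sites. The Ero1lb site was nearer the middle of the set, with 91 and 59 reads, log2 CPM values of 6.87 and 6.64 and rank 3484. A further final site that the authors did not join to Ero1lb lay closer to it, 3512 bp before its start, at log2 CPM values of 6.39 and 6.08. The other 8 genes had their nearest final site outside the gene. Measured from the nearer gene end, it lay from 4436 bp away for Hyou1 to 381362 bp for Trib3. The Hyou1 site lay downstream, 17315 bp from the start of that gene. The series holds an input library of MIN6, which was not used here, so these counts give no enrichment.

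The 101 bases around both joined sites are given below in GRCm38, plus strand, because they are the bound sequence closest to members. They run at chr13:12559957-12560057 for Ero1lb and chr8:94385795-94385895 for Herpud1. Capitals mark the 5 bases around the deposited position, which may count from 0 or from 1. The letters CACTCA, on either strand, were in 19.3% of the 101-base windows at all final sites and in neither of these windows. These letters were chosen after the sites were seen, and no other core was searched. Their absence here therefore does not show that either site lacks an Nkx2.2 core.
Ero1lb site: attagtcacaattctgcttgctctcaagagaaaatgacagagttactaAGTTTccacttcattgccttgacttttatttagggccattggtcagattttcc
Herpud1 site: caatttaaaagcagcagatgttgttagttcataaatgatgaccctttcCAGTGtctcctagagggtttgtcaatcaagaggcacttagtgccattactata

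Libraries held 12398041 to 46840701 counts. Before the results, 5 features of the libraries bear on them. In E15.5 pancreas, control 3 and SDmut 2 carried muscle transcripts, with 4753 and 5478 CPM summed over 6 muscle genes against 10.6 to 63.6 in the other libraries. Among 8-week islets, betaSDmut 1 had 740 CPM of Xist, the RNA of the inactive X chromosome, against 1.30 to 3.51 CPM in the other 4, and the lowest sum of 13 acinar genes. Among 4-week islets, control 1 had 987 CPM of Xist against 0 to 0.769 in the other 3. Nkx2-2 was at 89.4 ± 18.6 CPM (SD, n = 2) in 4-week controls and 78.7 ± 20.02 CPM (SD, n = 2) in libraries labelled betaKO, with overlapping groups and no call (-0.18 on the log2 scale, edgeR adjusted p 0.779). Which part of the gene the allele removes is not given in the sources used here, so this level does not check the label. The islet libraries had high sums of beta-cell markers, 166700 to 241700 CPM over 7 genes, none of them at 0.

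Levels of the 10 genes can be compared with each other only per transcript length, for which the authors' FPKM were used. In islets of 8-week controls Hspa5, the main lumenal chaperone (BiP), was highest at 951 ± 19.2 FPKM (SD, n = 2), and Ero1lb, the oxidase that hands disulfide bonds to protein disulfide isomerases and is enriched in pancreas, was next at 800 ± 10.8 FPKM. Hyou1, an exchange factor and chaperone, followed at 296 ± 9.50 FPKM and Dnajb9, a J-domain cochaperone also called ERdj4, at 278 ± 47.1 FPKM, with overlapping ranges. Then came Xbp1 (221 ± 12.8 FPKM), Atf4 (186 ± 15.1 FPKM), Herpud1 (133 ± 17.7 FPKM) and Pdia4 (113 ± 4.30 FPKM), whose ranges did not overlap. Ddit3, the transcription factor CHOP, stood at 25.0 ± 2.24 FPKM, and Trib3, a pseudokinase that curbs Atf4, was lowest at 2.17 ± 0.274 FPKM. In 4-week controls the FPKM ranges of Ero1lb (929 ± 116) and Hspa5 (916 ± 22.4) overlapped at the top of the order.

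In progenitors the order was different. Hspa5 was again highest, at 258 ± 20.6 FPKM (SD, n = 3) in pMN libraries, followed by Atf4 at 93.8 ± 12.1 FPKM and Pdia4, a multi-domain disulfide isomerase, at 59.1 ± 6.41 FPKM. Ero1lb was lowest of the 10 at 0.714 ± 0.148 FPKM. Its paralog Ero1l, which is expressed in most tissues, was at 15.9 ± 2.78 FPKM in the same libraries and at 30.7 FPKM in islets of 8-week controls. The FPKM tables for islets and progenitors were normalized separately, so these levels are set side by side and not tested.

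The first comparison concerned islets at 8 weeks, with the SD mutation in beta cells. None of the 10 genes was called at an adjusted p under 0.05 by edgeR's quasi-likelihood test, where 7.94% of 15413 genes were called, and none had an unadjusted p under 0.05 (25.7% of all genes). DESeq2 also called 0 of the 10. Among the 10, 4 had a log2 fold change above 0 and 6 below, with a median of -0.18 against 0.01 over all genes. Only Ero1lb had groups that did not overlap, against 45.7% of all genes. Values are from here on CPM after TMM scaling, a count relative to the scaled library size, which can be compared between libraries for 1 gene.

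Ero1lb, at chromosome 13, 12565874 to 12611396 (GRCm38), had 2685 and 2723 CPM in the controls and 2619, 1598 and 1372 CPM in betaSDmut islets 1, 2 and 3. The mutant libraries 2 and 3 were well below both controls, and library 1 was just below them. The log2 fold change was -0.54 (SE 0.278, edgeR adjusted p 0.286). Without betaSDmut 1, the library with high Xist, the value was -0.87 and passed the threshold (edgeR adjusted p 0.00526), in a fit that called 18.1% of all genes.

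The chaperones had a similar spread among the mutant libraries. Hspa5 was at 1834 and 1765 CPM in controls and 2925, 2053 and 1578 CPM in betaSDmut islets 1 to 3 (log2 fold change 0.27, SE 0.255, edgeR adjusted p 0.542). Hyou1 was at 1005 and 1044 CPM against 1629, 1249 and 907 CPM, and Pdia4 at 213 and 200 CPM against 369, 258 and 202 CPM. For all 3 genes betaSDmut 1 and 2 were above both controls, while betaSDmut 3 was below both for Hspa5 and Hyou1 and between them for Pdia4. Dnajb9 ran from 255 to 669 CPM in the mutants, around controls of 438 and 344 CPM. Without betaSDmut 1 the log2 fold changes became 0.01 for Hspa5, 0.07 for Hyou1, 0.15 for Pdia4 and -0.44 for Dnajb9, none of them called.

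The order of the betaSDmut libraries for these chaperones was opposite to that of the acinar sums. Summed over 13 acinar genes, the libraries had 726, 1446 and 6708 CPM in betaSDmut islets 1, 2 and 3 and 8304 and 5082 CPM in controls, with no acinar gene at 0. Among the markers of single cell types that edgeR called, Slc2a2, the glucose transporter of beta cells, was lower in betaSDmut islets (-0.89 on the log2 scale), and Acta1, a muscle actin at 1.09 CPM on average in controls and 2.92 CPM in mutants, was higher (1.41). The 3 mesenchymal genes were all lower at an unadjusted p under 0.05 (median -0.92). The part of other cell types and of sex in these values was not tested. In bulk islets, fewer cells of a type and less RNA per cell cannot be told apart.

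Herpud1, a membrane protein of endoplasmic reticulum-associated degradation, was at 206 and 171 CPM in controls and 220, 129 and 152 CPM in mutants. None of the transcription factors was called. Xbp1 was at 305 and 279 CPM in controls and 330, 240 and 211 CPM in mutants (log2 fold change -0.17, edgeR adjusted p 0.612), and passed the threshold only without betaSDmut 1 (-0.38, edgeR adjusted p 0.0366) among the 12 alternatives run. Atf4 was at 140 and 128 CPM in controls and 130, 105 and 119 CPM in mutants (-0.19, edgeR adjusted p 0.328). Their targets were low, with Ddit3 at 13.1 to 14.8 CPM in controls and 8.18 to 14.3 CPM in mutants, and Trib3 at 2.95 to 3.53 CPM and 1.61 to 2.97 CPM. The plot of islet libraries shows these values.

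**Figure D1:**
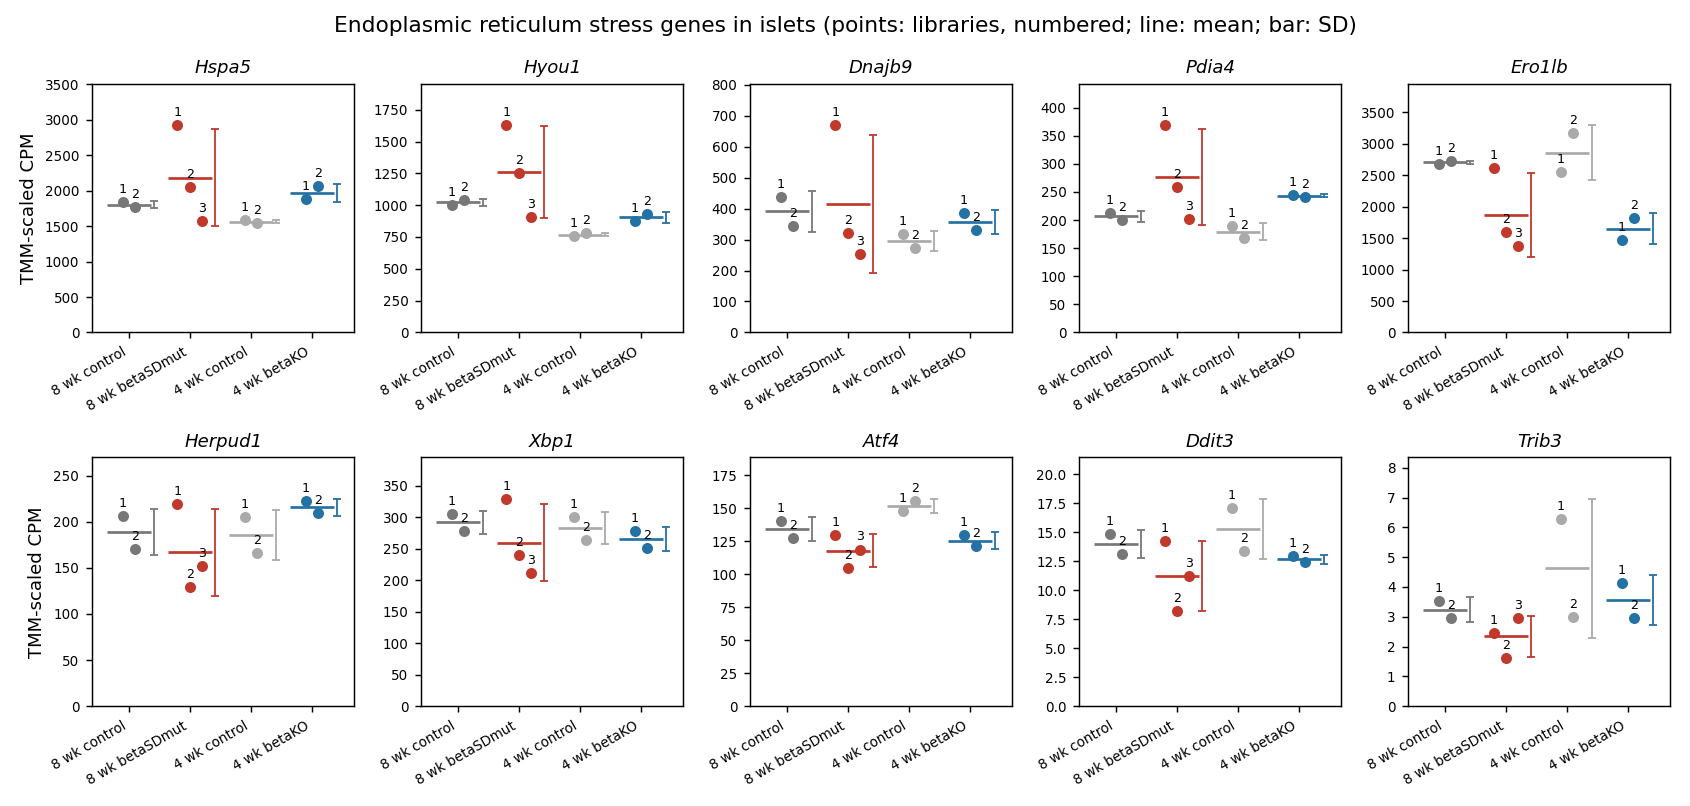
TMM-scaled CPM (linear axis from 0) of the 10 genes in each islet library, by group; numbers mark the library, the line is the group mean and the bar its SD. Library 1 of betaSDmut is the highest of its group for Hspa5, Hyou1, Dnajb9, Pdia4, Ero1lb, Herpud1, Xbp1, Atf4 and Ddit3; Ero1lb in both betaKO libraries (1472 and 1823 CPM) is below both 4-week controls (2547 and 3168 CPM).

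Other genes of the pathway were read from 6 lists of endoplasmic reticulum and stress response genes. In 8-week betaSDmut islets 8 of 107 distinct list genes were called (7.48%), against 7.94% of all genes, a share near the background. Creld2, a stress-induced lumenal protein, was at 93 and 115 CPM in controls and 191 to 223 CPM in mutants (log2 fold change 1.00, edgeR adjusted p 0.00972). The degradation genes Derl3 (0.86) and Edem2 (0.59; 163 and 166 CPM in controls, 245 to 253 CPM in mutants) rose as well, as did Sec11c (0.98), a subunit of the signal peptidase. These 4 were not called when either control was left out, which leaves 1 control whose spread is taken from the mutants, nor were Derl3 and Edem2 without betaSDmut 2. Over the 12 alternatives their log2 values stayed at 0.85 to 1.16 for Creld2, 0.70 to 1.04 for Derl3, 0.57 to 0.67 for Edem2 and 0.84 to 1.15 for Sec11c. Of the 16 chaperones and cochaperones 1 was called higher and 0 lower (list median 0.28), of 18 oxidative folding genes 0 (median 0.29), of 16 degradation genes 2 higher (median 0.14) and of 20 translocation genes 1 higher (median 0.16), against a median of 0.01 for all genes. DESeq2 called 3 chaperones and 5 oxidative folding genes higher, in a fit that called 13.2% of all genes. Without betaSDmut 1, edgeR called 3 chaperones higher and 4 oxidative folding genes higher and 2 lower, against 18.1% of all genes. Of the 18 oxidative folding genes 6 had an unadjusted p under 0.05 by edgeR, against 25.7% of all genes. Of 12 sensors and transcription factors 0 were called by edgeR or DESeq2, and 0 had an unadjusted p under 0.05.

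The integrated stress response list, the genes downstream of Atf4 and its kinases, was mixed in 8-week islets. Of 26 genes, 3 rose and 1 fell, with a list median of -0.19. Gars, the glycyl-tRNA synthetase, rose from 172 ± 6.36 CPM (SD, n = 2) to 307 ± 28.1 CPM (SD, n = 3), by a log2 value of 0.83 (edgeR adjusted p 0.00926). Phgdh, the first enzyme of serine synthesis, rose by a log2 value of 0.93, and Ppp1r15a, the phosphatase subunit that ends the response, by 0.52. Slc3a2, the heavy chain of amino acid transporters, had a log2 fold change of -0.61 (edgeR adjusted p 0.0299). None of these 4 kept its call when either control was left out, again with 1 control remaining, and Ppp1r15a, Phgdh and Slc3a2 lost it without betaSDmut 2 as well. Phgdh also lost it in the fit of all 9 islet libraries. Their log2 values over the 12 alternatives were 0.76 to 0.92 for Gars, 0.81 to 1.06 for Phgdh, 0.47 to 0.61 for Ppp1r15a and -0.71 to -0.53 for Slc3a2. Without betaSDmut 1, edgeR called 4 genes of the list higher and 5 lower, against 18.1% of all genes. The median of the chaperone list was 0.07 in that fit.

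The next comparison was of 4-week islets, betaKO by label, with their controls. By edgeR 0 of the 10 genes were called, against 1.56% of 14942 genes, while 5 had an unadjusted p under 0.05 (15.2% of all genes) and DESeq2 called 3, Ero1lb, Hspa5 and Pdia4, in a fit that called 5.15% of all genes. In 8 of the 10 the groups did not overlap, but with 2 libraries a group this held for 47.5% of all genes. The median log2 fold change was 0.06, against 0.00 for all genes, with 5 genes above 0 and 5 below.

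Ero1lb had 2547 and 3168 CPM in 4-week controls and 1472 and 1823 CPM in libraries labelled betaKO. Both were below both controls, with the largest log2 fold change of the 10 genes, -0.79 (SE 0.162, edgeR adjusted p 0.0989, DESeq2 adjusted p 1.58e-05). Over the 11 alternatives the value stayed between -0.96 and -0.63, and DESeq2 alone called it. With an adjusted p of 0.0989 the decrease is not a call of the main test.

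The chaperones lay the other way. Hspa5 was at 1581 and 1549 CPM in controls and 1877 and 2060 CPM in libraries labelled betaKO (0.33 on the log2 scale, SE 0.102, edgeR adjusted p 0.217). Pdia4 was at 190 and 169 CPM against 245 and 241 CPM (0.44, SE 0.0917, edgeR adjusted p 0.104). Hyou1 had 760 and 779 CPM in controls and 875 and 934 CPM in the others, a log2 difference of 0.23. Dnajb9 (0.27, edgeR adjusted p 0.366) and Herpud1 (0.22, edgeR adjusted p 0.472) also had both values above both controls.

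Atf4 was at 148 and 156 CPM in 4-week controls and 130 and 121 CPM in libraries labelled betaKO (a log2 difference of -0.27, SE 0.0833, edgeR adjusted p 0.215). Ddit3 had the same value, -0.27 (edgeR adjusted p 0.508), and Trib3 -0.39, with overlapping groups. Xbp1 groups overlapped too (265 and 301 CPM in controls, 252 and 279 CPM in the others). Of 107 list genes 2 (1.87%, against 1.56% of all genes) were called, both of them also called at 8 weeks: Creld2 (log2 fold change 1.23, edgeR adjusted p 0.0372) from 99.9 ± 3.88 CPM (SD, n = 2) to 234 ± 46.7 CPM (SD, n = 2), and Derl3 (1.12, edgeR adjusted p 0.0468) from 22.1 ± 3.44 to 48.1 ± 6.84 CPM. Creld2 was not called with either control left out, and Derl3 not without any 1 of the 4 libraries, in fits that leave 1 library in a group, nor with total library size. Over the 11 alternatives their log2 values were 1.01 to 1.42 and 0.97 to 1.30. The 16 chaperones had a median of 0.21 with 1 called by edgeR, 7 at an unadjusted p under 0.05 and 5 called higher by DESeq2. The 18 oxidative folding genes had a median of 0.20 with 0 called by edgeR, 8 at an unadjusted p under 0.05, and 3 higher and 1 lower by DESeq2. The integrated stress response list had a median of -0.09 with 0 of 26 called by edgeR, 4 at an unadjusted p under 0.05, and 2 lower by DESeq2. In this comparison 15.2% of all genes had an unadjusted p under 0.05 by edgeR, and DESeq2 called 5.15%.

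Other cell types moved with this comparison. The acinar sum was 7068 and 3833 CPM in controls and 26690 and 8957 CPM in libraries labelled betaKO, and the sum of 4 alpha-cell genes was 29170 and 24960 CPM against 62400 and 50570 CPM. The beta-cell sum was 210300 and 214900 CPM against 178900 and 166700 CPM. No gene of these 3 lists was at 0. Among single markers edgeR called Gcg (glucagon, 1.06 on the log2 scale), Ppy (pancreatic polypeptide, 1.48) and the collagens Col1a1 (1.36) and Col3a1 (1.00) higher in libraries labelled betaKO, and Ucn3, a marker of mature beta cells, lower (-1.41, edgeR adjusted p 0.0173). The 3 endothelial genes were all lower at an unadjusted p under 0.05 (median -0.43). Their part in the values of the 10 genes was not tested.

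The effects at both ages were then set against each other. When the 8-week effect was tested against the 4-week effect, edgeR called 0 of the 10 genes, against 1.21% of 15995 genes, and 0 had an unadjusted p under 0.05 (13.7% of all genes). DESeq2 also called 0. The largest differences were -0.39 for Herpud1 (SE 0.319, edgeR adjusted p 0.658) and 0.26 for Ero1lb (SE 0.388, edgeR adjusted p 0.83). Over the 10 genes the SE of the difference ran from 0.147 to 0.562, so this does not show that the mutation and the knockout label act alike. Among the list genes edgeR called 1 of 107 (0.935%, against 1.21% of all genes). This was Gars, which stood higher in the 8-week effect by 0.98. Genotype and age differ together between both effects, and the 4-week libraries refer to another study for their preparation, so these cannot be told apart.

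Across the 9 islet libraries Hspa5 and Pdia4 had the most similar profiles among the 45 pairs of the 10 genes. Their log2 CPM, each centred on its mean, differed by a root mean square of 0.0834. Hspa5 with Hyou1 (0.148) and Ddit3 with Atf4 (0.157) came next, and Trib3 with Hyou1 (0.693) was the least similar pair. For Ero1lb the most similar of 10044 genes were 9630033F20Rik (0.132), Trim37 (0.156), Whrn (0.161), Slc22a23 (0.168) and Cdh8 (0.169). These distances describe profiles over libraries that share groups, and they carry no test.

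At E15.5 the question was whether the SD mutation changes these genes in the whole developing pancreas. By edgeR 0 of the 10 were called, as against 0.00534% of 18723 genes (1 gene), and 0 had an unadjusted p under 0.05 (2.54% of all genes) or groups that did not overlap (3.58% of all genes). DESeq2 called 0. All 10 log2 fold changes were above 0, with a median of 0.19 against 0.01 for all genes, but with the number in the titles as a block Ero1lb was at -0.08. SDmut 4, the library with the most Ero1lb, was the only library with its number, so it adds nothing to the contrast with that block. Without the block, the lowest value was 0.07 for Atf4 and the highest 0.56 for Trib3 (SE 0.371), the latter at 0.675 to 2.18 CPM.

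Hspa5 was at 1483, 1135 and 1009 CPM in controls 1 to 3 and 1287, 1037, 1528 and 1748 CPM in SDmut 1 to 4. Ero1lb was at 142, 86.0 and 64.5 CPM in controls and 93.1, 65.0, 114 and 151 CPM in SDmut libraries. For both genes control 3 and SDmut 2, the libraries with muscle transcripts, were lowest, and control 1, SDmut 3 and SDmut 4 were highest. Hyou1, Pdia4 and Xbp1 had the same 2 libraries lowest. The acinar sum was also lowest there, at 19610 and 20770 CPM, against 28210 to 57970 CPM elsewhere, and its part in these values was not tested. Leaving out both libraries with muscle transcripts, edgeR again called 0, with Hspa5 at 0.22 and Ero1lb at 0.07. Trib3, at 0.56 with all libraries, was at 0.12 in that fit. The plot of the embryonic libraries shows the overlap.

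**Figure D2:**
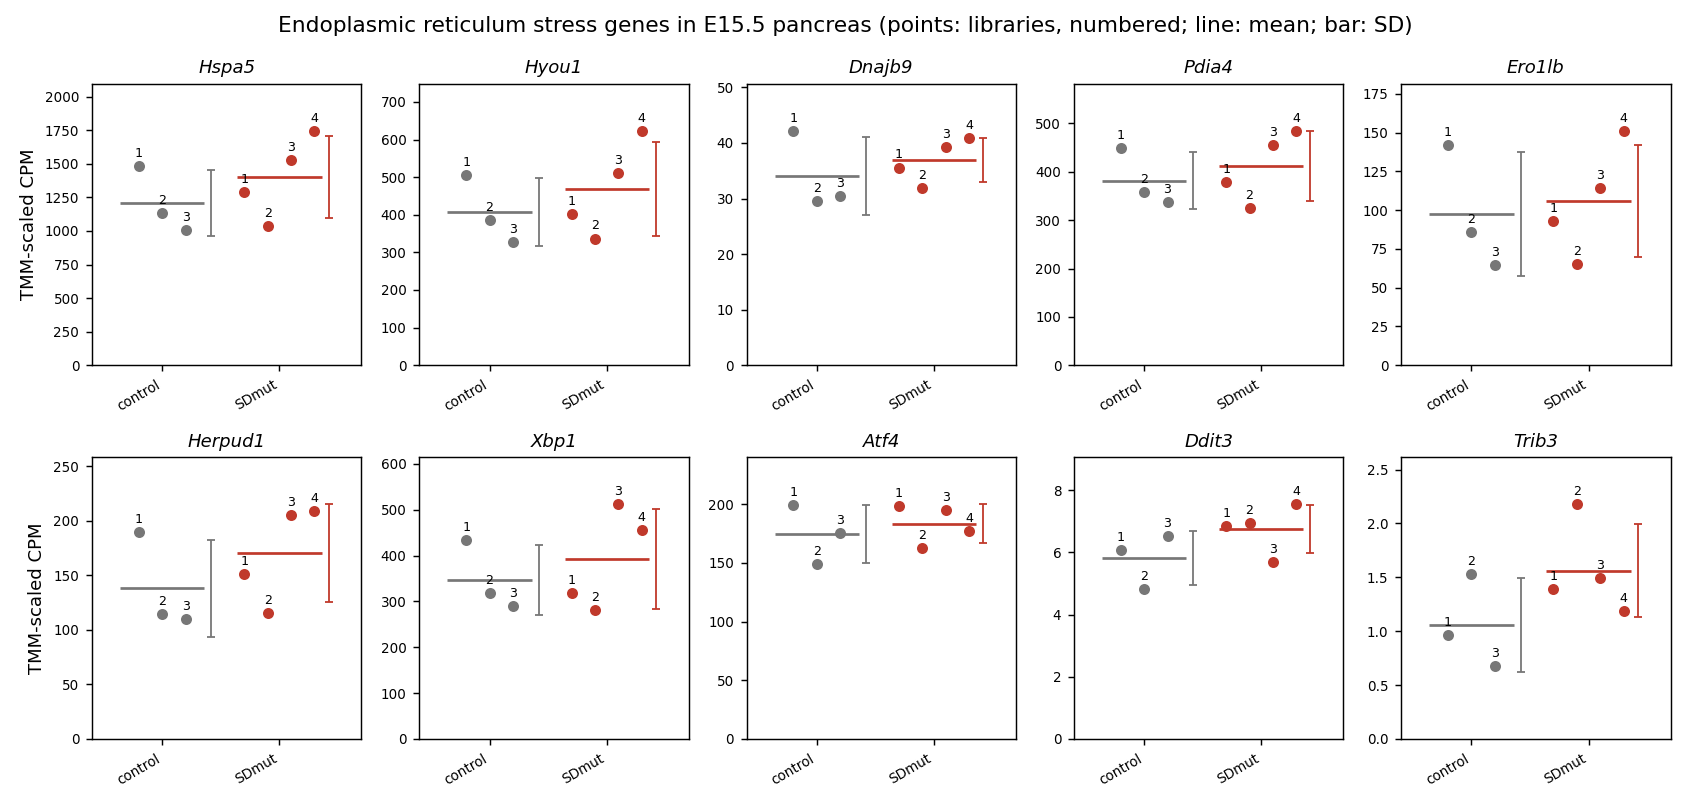
TMM-scaled CPM (linear axis from 0) of the 10 genes in each E15.5 pancreas library, with group means and SD. Control and SDmut libraries overlap in all 10 panels, and Hspa5 ranges from 1009 to 1748 CPM over the 7 libraries.

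The 6 lists held no called gene at E15.5 either, by edgeR or DESeq2, out of 12 sensors, 16 chaperones, 18 oxidative folding genes, 17 degradation genes, 26 stress response genes and 20 translocation genes, and 0 of them had an unadjusted p under 0.05 by edgeR. Their medians lay between -0.01 (sensors) and 0.17 (translocation). Beta-cell markers were low in this tissue, 290 to 818 CPM in controls and 54.8 to 107 CPM in SDmut libraries, so these values describe mostly other cells.

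In progenitors, wildtype Nkx2.2 was first compared with the untreated line. By edgeR 1 of the 10 genes was called, Atf4, against 9.49% of 15653 genes. An unadjusted p under 0.05 was found for 4 (25.3% of all genes), and non-overlapping groups for 4 (31.4% of all genes). This fit did not pair libraries with the same number. With that pairing 4 of the 10 were called, against 29.6% of all genes. Nkx2-2 itself was at 5.40 to 11.6 CPM in pMN and 343 to 378 CPM in iNkx2.2 libraries. The median of the 10 was 0.08 (-0.01 over all genes), with 6 above 0 and 4 below.

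Atf4, at chromosome 15, 80255184 to 80257541 (GRCm38), fell from 177, 229 and 172 CPM in pMN libraries 1 to 3 to 109, 117 and 115 CPM in iNkx2.2 libraries. The groups did not overlap, and the iNkx2.2 libraries lay close together. The log2 fold change was -0.76 (SE 0.117, edgeR adjusted p 0.00533), and Atf4 was called in 16 of 16 alternatives, with values from -0.82 to -0.62.

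Trib3, a target of Atf4, was at 6.40, 9.16 and 4.32 CPM in pMN and 2.37, 3.63 and 2.34 CPM in iNkx2.2 libraries (log2 fold change -1.26, SE 0.388, edgeR adjusted p 0.0741). Herpud1 was at 35.1, 35.8 and 35.7 CPM against 23.5, 22.3 and 30.8 CPM (-0.48, SE 0.132, edgeR adjusted p 0.052). Xbp1 lay the other way, at 53.5, 62.7 and 66.2 CPM against 71.7, 72.1 and 91.4 CPM (0.36, SE 0.125, edgeR adjusted p 0.102). When libraries with the same number were paired by a replicate block, all 3 passed the threshold (edgeR adjusted p 0.00478, 0.00732 and 0.00563), so 4 of the 10 were called, against 29.6% of all genes in that fit. Lane 4 held replicate 3 of both groups, so lane and replicate 3 cannot be told apart. Within sequencing lane 2, with 2 pMN and 2 iNkx2.2 libraries, Atf4 (-0.82) and Herpud1 (-0.61) were called.

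The other 6 genes had log2 differences from -0.01 to 0.23, none of them called. Hspa5 was at 851 to 1053 CPM in pMN and 955 to 1142 CPM in iNkx2.2 libraries (0.16), Hyou1 had a log2 value of 0.14 and Pdia4 of 0.15, and Dnajb9 of -0.01. Ddit3, although a target of Atf4, had a log2 fold change of 0.03 (SE 0.196) at 8.30 to 12.97 CPM in pMN. Ero1lb was at 3.03 to 3.98 CPM in pMN and 3.85 to 4.45 CPM in iNkx2.2 libraries (0.23, edgeR adjusted p 0.555).

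**Figure D3:**
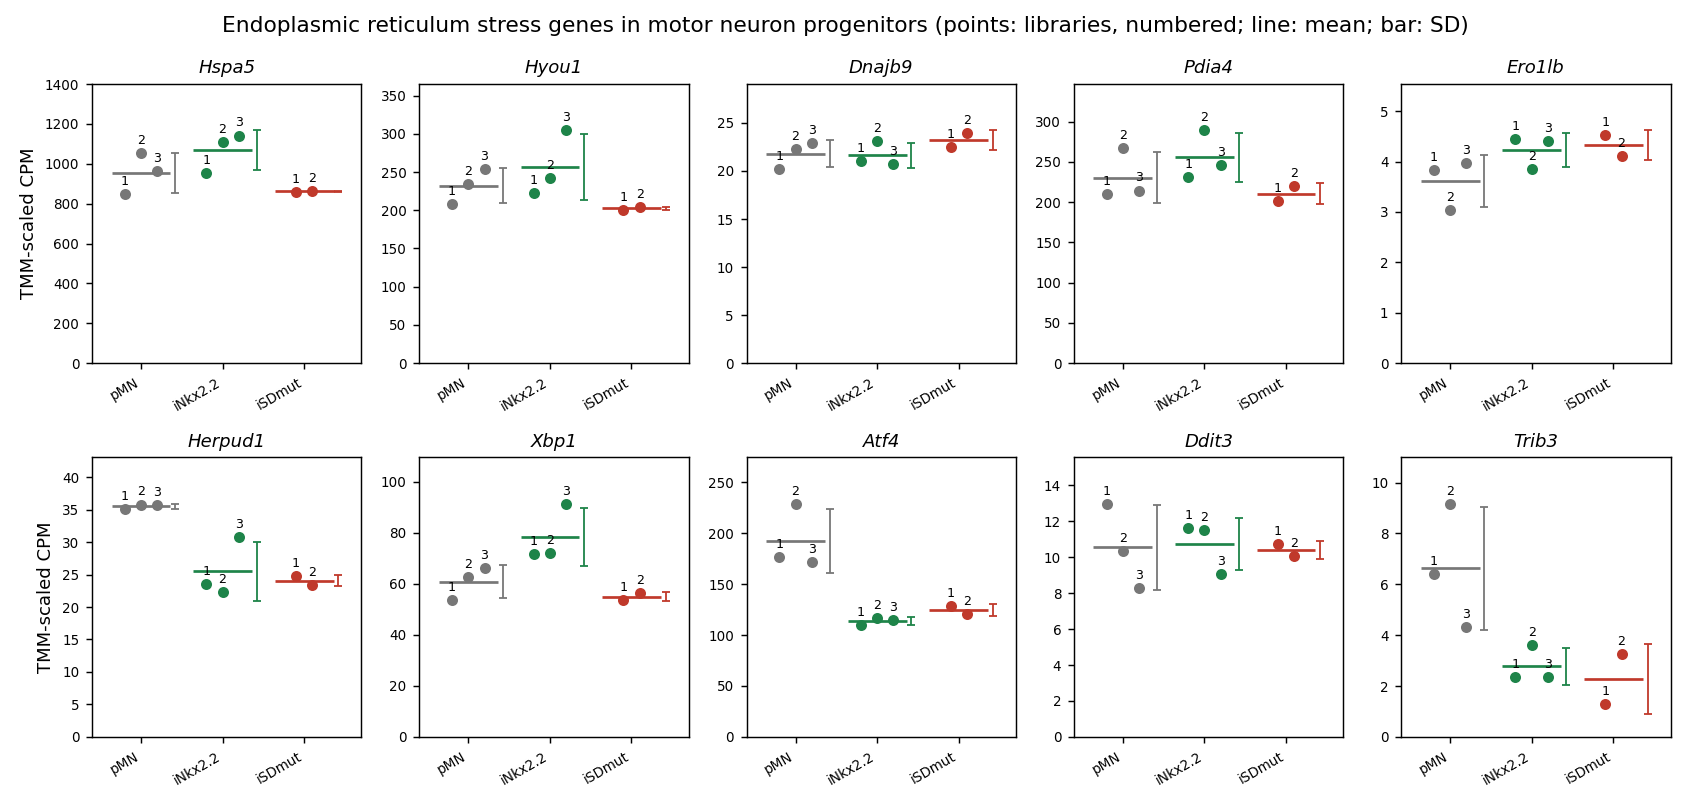
TMM-scaled CPM (linear axis from 0) of the 10 genes in each progenitor library, with group means and SD. Atf4 in all 5 induced libraries (109 to 129 CPM) is below all 3 pMN libraries (172 to 229 CPM), and Herpud1 in the pMN libraries (35.1 to 35.8 CPM) is above the induced ones.

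In the integrated stress response list 11 of 26 genes fell and 0 rose, Atf4 itself being 1 of the 11, where 9.49% of all genes were called in either direction. The list median was -0.40 against -0.01 for all genes, with 21 genes below 0 and 5 above. Gars fell from 354, 390 and 347 CPM to 215, 208 and 247 CPM (log2 fold change -0.70, edgeR adjusted p 0.00345). Vldlr, a lipoprotein receptor and Atf4 target, fell from 126, 80.3 and 92.6 CPM to 31.1, 34.8 and 15.1 CPM (-1.89, edgeR adjusted p 0.00459). Chac1, a glutathione-degrading enzyme, fell from 13.1, 22.3 and 8.26 CPM to 2.33, 3.49 and 2.38 CPM (-2.42, edgeR adjusted p 0.0113). The other 7 called genes had log2 fold changes from -1.18 to -0.40. The count of genes that fell was 3 without iNkx2.2 replicate 1, 4 without pMN replicate 1 and 7 without pMN replicate 2 or with no filter on low counts, and 16 with the replicate block (1 rose there). The fit with the block called 29.6% of all genes. Gars and Vldlr were called in 16 of 16 alternatives, and Chac1 in 15. Markers of the progenitors fell in the same libraries: the sum of 4 neural progenitor genes was 634 to 670 CPM in pMN and 188 to 229 CPM in iNkx2.2 libraries, with no gene at 0. Pax6 (-5.54 on the log2 scale), Olig2 (-5.36) and Sox2 (-0.52), transcription factors of neural progenitors, were called. Their part in the values of the stress response genes was not tested.

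In the remaining lists few genes were called, where edgeR called 9.49% of all genes. The log2 value was above 0 for 13 of 16 chaperones (median 0.16), 14 of 17 degradation genes (0.15), 10 of 12 sensors and transcription factors (0.19), 11 of 17 oxidative folding genes (0.14) and 10 of 19 translocation genes (0.00), against a median of -0.01 for all genes. Calr, the lectin chaperone calreticulin, rose from 714 to 962 CPM (log2 fold change 0.43, edgeR adjusted p 0.0468), the 1 of 16 chaperones called, and was called in 7 of 16 alternatives (0.36 to 0.54). Sec11c rose from 9.69 to 14.7 CPM (0.60, edgeR adjusted p 0.031), the 1 of 19 translocation genes called. Of 17 oxidative folding genes and 17 degradation genes edgeR called 0, with 4 in each list at an unadjusted p under 0.05 (25.3% of all genes). DESeq2 called 1 and 2 of them, against 14.5% of all genes. Atf4 was the 1 sensor or transcription factor called.

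The SD mutant transgene was then compared with the same pMN libraries, so the values below share their controls with those above. By edgeR 1 of the 10 genes was called, Atf4 again, against 3.54% of 15653 genes, and 3 had an unadjusted p under 0.05 (20.2% of all genes). In 5 of the 10 the groups did not overlap, against 36.4% of all genes. Atf4 was at 129 and 121 CPM in iSDmut libraries, both below all pMN libraries, and its log2 difference was -0.63 (SE 0.132, edgeR adjusted p 0.0362). This call was lost in 7 of 16 alternatives: without pMN 1, iNkx2.2 1, iNkx2.2 2, iSDmut 1 or iSDmut 2, within lane 2, and in the fit of the 2 groups alone (adjusted p up to 0.15), while the value stayed between -0.69 and -0.49. Of the iSDmut libraries, lane 2 holds iSDmut 1 alone. The lane 2 fit, like those without iSDmut 1 or 2, has 1 iSDmut library whose spread is taken from the other groups. iSDmut 2 was the only library in lane 3, so lane and library cannot be told apart for it, here or against iNkx2.2.

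Herpud1 was at 24.7 and 23.4 CPM in iSDmut libraries (log2 fold change -0.56, SE 0.151, edgeR adjusted p 0.0763). Trib3 was at 1.29 and 3.24 CPM (-1.52, SE 0.456, edgeR adjusted p 0.104). Both were below every pMN library and were called by DESeq2 (adjusted p 0.0159 and 0.0162), which called 8.83% of all genes. Xbp1 was at 53.7 and 56.4 CPM, within the pMN range (-0.14, edgeR adjusted p 0.615), and Hspa5 at 860 and 864 CPM (-0.15).

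Of the 26 stress response genes 5 fell and 0 rose, where 3.54% of all genes were called, and 25 had log2 fold changes below 0, with a list median of -0.63. Gars had 234 and 227 CPM in iSDmut libraries (-0.66, edgeR adjusted p 0.0157), Slc3a2 121 and 118 CPM against 183 to 188 CPM in pMN (-0.63), and Slc7a5, the light chain that pairs with Slc3a2, 117 and 118 CPM against 211 to 222 CPM (-0.89). The count of genes that fell was 0 without pMN 1 or without iSDmut 1, 1 without iSDmut 2 or within lane 2 (1 iSDmut library each, as without iSDmut 1), 3 without pMN 2, iNkx2.2 1 or iNkx2.2 2, and 11 by DESeq2. DESeq2 called 8.83% of all genes. The medians of this list stayed between -0.68 and -0.48 over 16 alternatives. The sum of the neural progenitor genes was 359 and 221 CPM in iSDmut libraries, below the pMN values, with Pax6 (-2.77 on the log2 scale) and Sox2 (-0.49) called, and its part was not tested. The plot of the list shows both contrasts side by side.

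**Figure D4:**
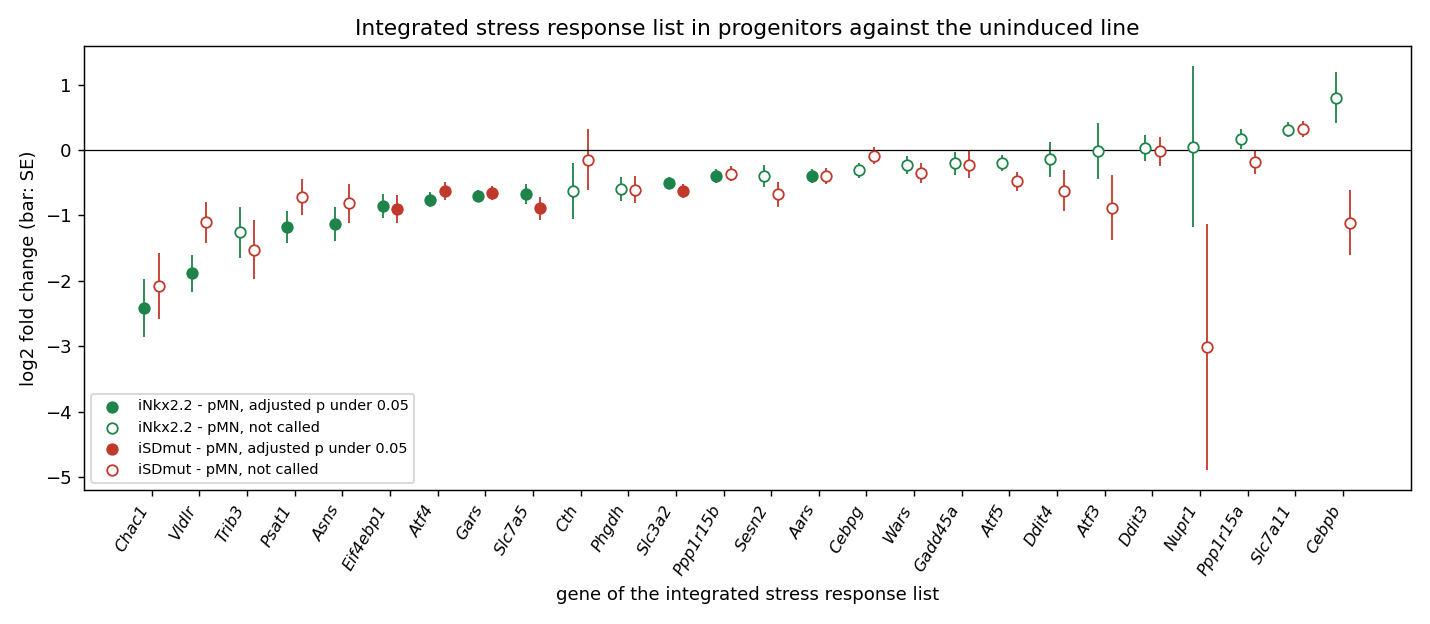
Log2 fold changes (points) with their SE (bars) of the 26 integrated stress response genes in iNkx2.2 and iSDmut libraries against the same 3 pMN libraries, ordered by the iNkx2.2 value; filled points passed an adjusted p of 0.05. The 11 filled iNkx2.2 points and 5 filled iSDmut points all lie below 0.

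The mutant and wildtype transgenes were last compared directly. By edgeR 0 of the 10 genes were called, against 0.281% of 15653 genes, while 3 had an unadjusted p under 0.05 (12.5% of all genes), Xbp1, Hspa5 and Hyou1, and DESeq2 called 1, Xbp1. In 5 of the 10 the groups did not overlap, against 31.9% of all genes. Xbp1 was lower in both iSDmut libraries (53.7 and 56.4 CPM) than in the 3 iNkx2.2 libraries (71.7 to 91.4 CPM), with a log2 difference of -0.51 (SE 0.142, edgeR adjusted p 0.194, DESeq2 adjusted p 0.0486). For Hspa5 (-0.31), Hyou1 (-0.34) and Pdia4 (-0.28) the iSDmut values were also below all iNkx2.2 values, with edgeR adjusted p of 0.368, 0.373 and 0.454. Atf4 differed by 0.13 (SE 0.13, edgeR adjusted p 0.706). Of the list genes edgeR called 0, though 7 of 16 chaperones had an unadjusted p under 0.05. DESeq2 called 1 of 26 stress response genes and, besides Xbp1, 0 in the other lists, against 3.02% of all genes. Nkx2-2 was at 343 to 378 CPM in iNkx2.2 and 245 and 248 CPM in iSDmut libraries.

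The fold changes of all 10 genes are drawn together for the 6 comparisons of groups.

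**Figure D5:**
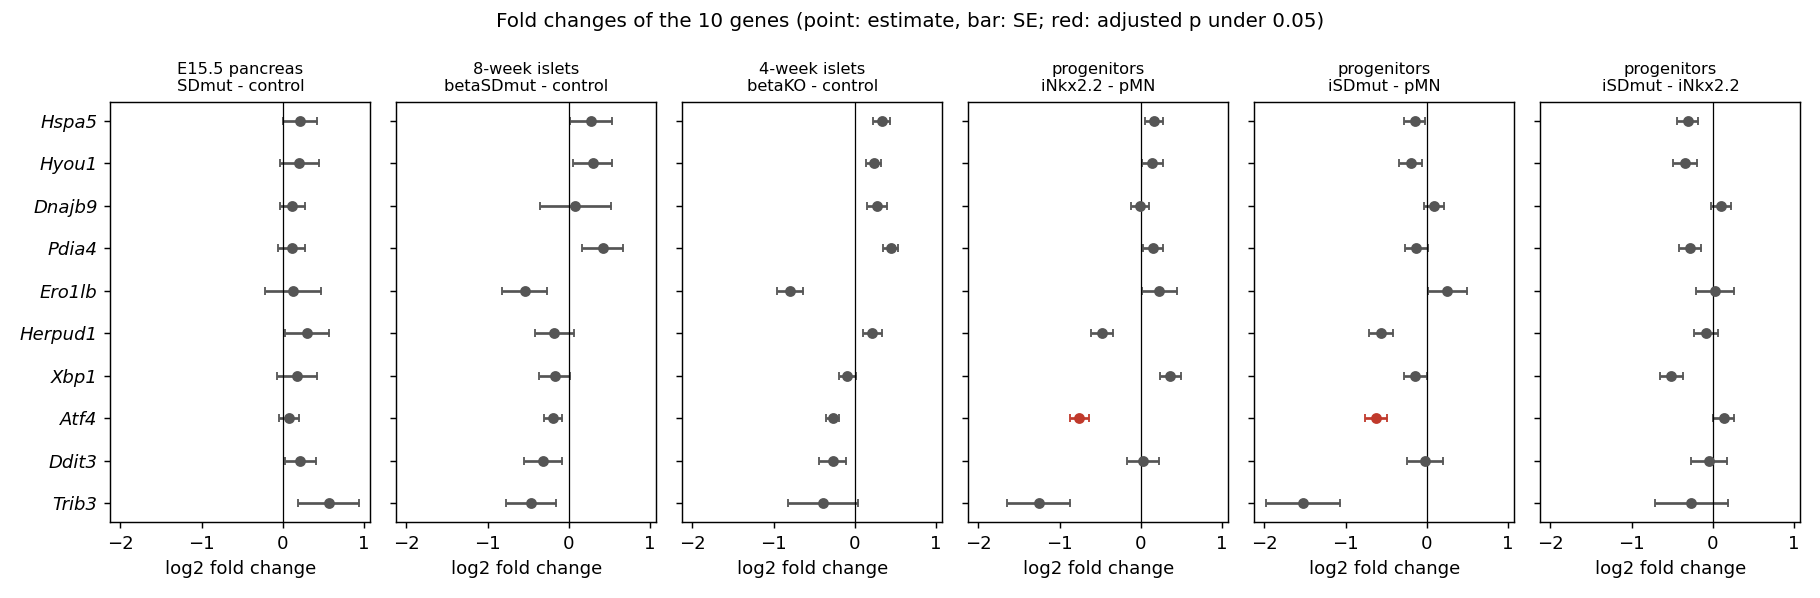
Log2 fold change (point) and SE (bar) of the 10 genes in 6 comparisons, on 1 shared axis, from fits without a replicate block. Red marks an adjusted p under 0.05. The 2 red points are Atf4 in iNkx2.2 (-0.76) and iSDmut (-0.63) against pMN; Ero1lb is the gene farthest below 0 in both islet panels (-0.54 and -0.79).

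The authors' own calls were read beside these. The authors' deposited table for 8-week islets lists all 10 genes and calls 0. Their table of 3 islet groups lists 9 and calls 0 for either genotype, with log2 fold changes of -0.65 and -0.74 for Ero1lb in betaSDmut and betaKO. For progenitors the authors' deposited table lists 2 of the 10. In it Atf4 is called against pMN in iNkx2.2 (-0.71) and in iSDmut (-0.56), and Herpud1 in iNkx2.2 (-0.45).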

How the data were processed

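RNA was measured in 24 libraries. The deposited read counts per gene are raw, per the file headers. FPKM, log2 CPM at ChIP sites, and tables that pair p-values and calls with log2 fold changes are the authors' own, per the deposited description. The submitters' processing notes name STAR, Cufflinks, DESeq2, edgeR 3.20.9, limma 3.34.9, bedtools 2.17.0 and mm10; which step used which, and whether counting used strand, is not given in the sources used here. Counts of the 10 genes were lowest for Trib3, down to 23 in a library.

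Counts were fitted over all genes with edgeR 4.0.16 in R 4.3.3 (TMM, filterByExpr, robust quasi-likelihood test), with Benjamini-Hochberg adjustment and a threshold of 0.05. SE is |log2 fold change| over the root of F. Progenitor fits used all 8 libraries. Likeness used log2(CPM + 0.5) for genes with a mean of at least 3. Alternatives were RLE factors, total library size, other filters, DESeq2 1.42.0, blocks, sequencing lane, other sets of libraries and leaving out each library. Fits were tested on simulated data. Deviations from group means of pMN and iNkx2.2 libraries with the same number in the titles correlated at 0.605, 0.612 and 0.647, which was read as pairing.

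The 10 genes and the lists were chosen with earlier results of these data known. Of each list at most 4 called genes per direction are named. No other columns were in the count tables.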

Additional observations from a re-analysis of the deposited data

Results flagged for a closer look

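Gars, of the integrated stress response list, was picked out because its effects at both islet ages differed by a test of the difference itself: its log2 fold change in 8-week betaSDmut islets exceeded that in 4-week libraries labelled betaKO by 0.98 (SE 0.14, edgeR adjusted p 0.0216). It was called in 9 of 15 alternatives and lost without either control of either age, without betaSDmut 2 or without betaKO 2 (adjusted p up to 0.149), while the difference stayed between 0.91 and 1.15; without a control or betaKO 2 a group is left with 1 library. Gars was the 1 list gene called of 107 (0.935%), against 1.21% of all genes. For Gars too, genotype, age and preparation change together between both effects and cannot be told apart. In none of the 10 E15.5 SDmut groups of 4 values, 1 for each endoplasmic reticulum stress gene, did a library lie far enough from the others to be picked out.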

How the results depend on the processing

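The number of the 10 genes called was recomputed under each alternative. It stayed at 0 in all alternatives for E15.5 pancreas and for the difference of islet effects. In 4-week islets it was 3 with DESeq2 and 0 otherwise. For iNkx2.2 against pMN it was 2 with RLE factors, total library size, lane 2 only and the fit of 2 groups, 3 with DESeq2 and 4 with the replicate block. For iSDmut against pMN it was 3 with DESeq2 and with the replicate block (Herpud1 and Trib3 besides Atf4), 0 in the fit of 2 groups and 0 in lane 2, where 1 iSDmut library is left and is taken to vary like the other groups. For iSDmut against iNkx2.2 it was 1 with DESeq2 and 1 with the replicate block (Xbp1). Leaving out each library gave 0 to 2 for 8-week islets, 1 to 2 for iNkx2.2 and 0 to 2 for iSDmut against pMN. Same-numbered islet libraries did not deviate together (correlations -0.0786 to -0.0124). The 2 iSDmut pairs correlated at 0.374 and 0.0571 with pMN and at 0.36 and 0.13 with iNkx2.2, which is too few pairs to read as pairing. With the block 13 of 26 stress response genes fell in iSDmut against pMN, in a fit that called 16.8% of all genes. Without it 5 fell, where 3.54% of all genes were called. The block changed no islet or E15.5 call of the 10 genes, but Slc3a2 at 8 weeks and Creld2 at 4 weeks were not called with it. Calls over all genes also moved: 45 and 37 in 8-week islets without control 1 or 2 (1 control left), against 1224, and 4629 against 1486 with the block for iNkx2.2. Of single-gene values, 969 kept their side of the threshold, 24 gained and 7 lost it, and 62 uncalled values changed sign. Total library size moved the median of all genes by 0.10 for iNkx2.2 and 0.17 for the difference of islet effects. Trib3 and Ero1lb in progenitors are limited by low counts.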
